A study of Drosophila melanogaster with 3 samples.

Results

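The vacuolar ATPase subunit genes of Drosophila melanogaster were taken as the protein-coding genes whose symbol begins with Vha, and 33 of 13945 protein-coding genes met that rule. They were examined in chromatin immunoprecipitation and sequencing (ChIP-seq) data for PHDP, a paired-like homeodomain transcription factor, from whole embryos 10 to 24 hours old. All embryos came from 1 transgenic line that stably expresses PHDP with green fluorescent protein fused to its C terminus, and the chromatin was precipitated with an antibody against that protein. The series held 3 biological replicates of this 1 group, and the promoter that drives the fusion is not given in the sources used here. No untagged embryos were analysed here, so peaks that the antibody gives without PHDP cannot be told apart from PHDP binding. In whole embryos the cell type behind a peak cannot be told apart either. A gene was called bound when a peak summit lay within 1 kb of any of its annotated start sites.

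The vacuolar ATPase (V-ATPase) is a rotary proton pump that acidifies lysosomes, endosomes and secretory vesicles, and in some epithelia it works at the plasma membrane. Its V1 sector, in the cytosol, hydrolyses ATP and turns a central stalk, and its V0 sector, in the membrane, carries protons through a ring of small c subunits against the large a subunit. In the fly several subunits are encoded by both a widely expressed gene and paralogs confined to a few tissues, often the testis, and the transcription factor Mitf is known to activate V-ATPase genes through E-box sites. The 33 genes comprised 13 of V1, 18 of V0 and 2 for the accessory subunit Ac45. By general knowledge of fly expression, not by these files, 10 were placed as widely expressed paralogs, 16 as tissue-restricted paralogs, and 7 in neither class. Of these 7, the genes for subunits B, C, E, G and H are alone for their subunit, and the paralogs VhaAC45 and VhaAC45RP were not classed. Vha100-1 (placed as restricted) and Vha68-1 (placed as widely expressed) are the least certain placements. Earlier results of these data were known when the classes were chosen.

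Sequences are shown first for the A subunit, whose 3 paralogs carry or lack a promoter peak, and then for the peak of a tissue-restricted and of a widely expressed gene that each share an upstream region with a neighbour. All are from RefSeq's release 6 genome (dm6), read 5′ to 3′ on the gene's strand. Capitals mark every match to the words searched, on either strand. The first is the summit region of Vha68-2 (chr2L:12974130-12974280, plus strand, intergenic), with a match to GGTCACAC and to GAGAG in reverse. The next are the 150 bp before the start of Vha68-1 (chr2L:13004108-13004257, minus strand), with TAATTA, and of Vha68-3 (chr2L:12978636-12978785, plus strand), with AGATAA. The fourth and the fifth are the intergenic parts of the summit regions of Vha16-5 (chr2L:10737243-10737344, minus strand), with no word, and VhaM9.7-b (chr3L:21539490-21539640, plus strand), with AGATAA. Their GC contents were 53.6% for Vha68-2, 39.3% for Vha68-1, 20.7% for Vha68-3, 49.0% for Vha16-5 and 29.1% for VhaM9.7-b.
Vha68-2: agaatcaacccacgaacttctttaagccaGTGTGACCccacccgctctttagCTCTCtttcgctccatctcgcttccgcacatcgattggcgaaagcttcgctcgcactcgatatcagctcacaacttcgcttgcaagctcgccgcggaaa
Vha68-1: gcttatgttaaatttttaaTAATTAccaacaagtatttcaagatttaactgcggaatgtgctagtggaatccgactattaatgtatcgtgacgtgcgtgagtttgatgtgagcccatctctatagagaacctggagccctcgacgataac
Vha68-3: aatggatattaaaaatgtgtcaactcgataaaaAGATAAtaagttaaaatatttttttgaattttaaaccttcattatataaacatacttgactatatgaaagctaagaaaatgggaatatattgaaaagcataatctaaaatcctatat
Vha16-5: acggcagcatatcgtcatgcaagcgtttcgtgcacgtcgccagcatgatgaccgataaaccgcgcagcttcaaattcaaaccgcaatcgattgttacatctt
VhaM9.7-b: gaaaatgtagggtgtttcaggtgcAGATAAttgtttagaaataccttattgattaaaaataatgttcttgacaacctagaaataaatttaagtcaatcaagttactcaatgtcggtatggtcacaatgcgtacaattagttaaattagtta

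E-box sites of the kind that Mitf and related factors are known to bind stood close to the start of several members, and 3 of these are shown as 30 bp with the site in capitals, chosen after their positions were seen. The Vha55 site (chr3R:12627756-12627785, minus strand) lay within 100 bp of its IDR summit, and a TCATGTG match overlaps the same 30 bp in lower case. The VhaM9.7-b site (chr3L:21539873-21539902, plus strand) and the VhaPPA1-1 site (chr3R:14904010-14904039, minus strand) lay just downstream of the start.
Vha55: gtcatgtgacggCACGTGAcgtcacagcag
VhaM9.7-b: ggacatgtccgTCATGTGatattcgttgct
VhaPPA1-1: agaaaatgtacgTCATGTGattgtggattc

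Widely expressed V-ATPase paralogs carried promoter peaks more often than tissue-restricted paralogs, while the share over all 33 genes differed from that of all protein-coding genes by less than the spread between replicates. The list filtered by irreproducible discovery rate (IDR), a filter meant to keep peaks ranked alike in replicates, held 7092 peaks. The list called on the pooled replicates held 30000. Not every IDR peak had a summit within 100 bp in all 3 replicate lists. In the IDR list 12 of 33 V-ATPase genes (36.4%) were bound, against 28.9% of all protein-coding genes. The 12 were 7 of 10 widely expressed paralogs (70.0%), 1 of 16 tissue-restricted paralogs (6.25%) and 4 of 7 genes in neither class (57.1%). In the pooled list the count was 21 of 33 (63.6%), against 50.6% of all genes, with 9 of 10, 5 of 16 and 7 of 7 in these classes. The pooled list runs down to a −log10 q of 0.348. With pooled peaks of 2 or more on that scale the count was 17. The restricted Vha16-2 and Vha16-3 and the unclassed Vha26 and VhaAC45RP had only weaker pooled promoter peaks. No share of all genes is given for that filter. By sector, 7 of 13 V1 genes, 5 of 18 V0 genes and neither of the 2 Ac45 genes had an IDR summit within 1 kb. The genes lay on arms 2L (6), 2R (8), 3L (5), 3R (12) and X (2).

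The contrast between paralog classes was present in each replicate. Among the 5000 strongest peaks of a replicate, 40.0%, 70.0% and 60.0% of the widely expressed paralogs were bound in replicates 1, 2 and 3, a mean of 56.7% ± 15.3 (SD, n = 3). The tissue-restricted paralogs reached 6.25%, 6.25% and 12.5%, a mean of 8.33% ± 3.61 (SD, n = 3), and its highest replicate was below the lowest of the widely expressed paralogs. The difference was 48.3 ± 15.0 percentage points (SD, n = 3) and had the same sign in 3 of 3 replicates (exact two-sided sign-flip test, p = 0.25, the smallest that 3 replicates can give). All protein-coding genes stood at 22.7% ± 0.377 (SD, n = 3). The widely expressed paralogs were above that in 3 of 3 replicates, by 34.0 ± 14.9 points, and the tissue-restricted paralogs below it in 3 of 3, with a difference of -14.4 ± 3.45 points (exact sign-flip p = 0.25 for each). Such a test treats the 3 replicates as independent, and it says nothing of how other sets of 10 and 16 genes would have differed. It also takes the classes as given, though they were chosen with earlier results of these data known. With Vha100-1 counted as widely expressed the difference was 42.6 points, and with Vha68-1 and VhaM9.7-a in neither class it was 58.3 points.

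**Figure D1:**
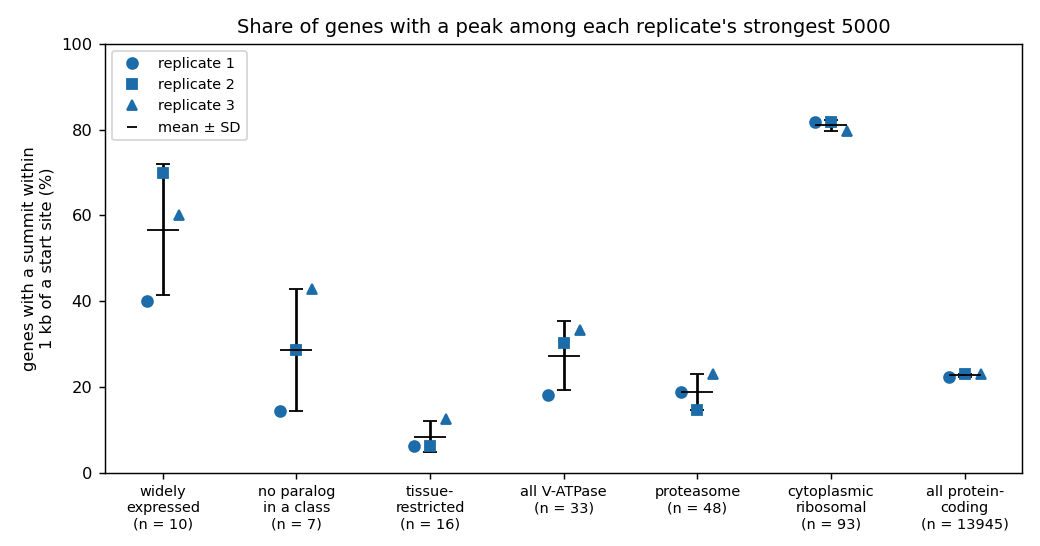
The plot gives, for each gene set, the percentage of genes with a summit within 1 kb of a start site among the strongest 5000 peaks of a replicate (points) with the mean and SD over 3 replicates (bars). Widely expressed V-ATPase paralogs averaged 56.7%, tissue-restricted paralogs 8.33%, and all protein-coding genes 22.7%.

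Taken whole, the 33 genes were bound in 18.2%, 30.3% and 33.3% in replicates 1, 2 and 3, a mean of 27.3% ± 8.02 (SD, n = 3). That was below all protein-coding genes in replicate 1 and above them in the other 2, a difference of 4.56 ± 7.65 points (exact sign-flip p = 0.5). Against the proteasome, another housekeeping complex with 48 genes and a mean of 18.8% ± 4.17, the difference was 8.52 ± 8.31 points with replicate 1 slightly below 0 (exact sign-flip p = 0.5). It was 13.1 points without replicate 1 and 4.92 points without replicate 2. The 93 cytoplasmic ribosomal protein genes stood far higher, at 81.0% ± 1.24, and the V-ATPase share differed from theirs by -53.7 ± 8.88 points, with the same sign in 3 of 3 replicates (exact sign-flip p = 0.25). The widely expressed V-ATPase paralogs lay between these complexes, 37.9 ± 17.1 points from the proteasome and -24.3 ± 15.6 points from the ribosomal protein genes. The V1 genes averaged 38.5% ± 13.3 and the V0 genes 22.2% ± 5.56, with V1 higher in 3 of 3 replicates by 16.2 ± 8.95 points (exact sign-flip p = 0.25). With summits within 500 bp the difference was 8.55 points and V1 was higher in 2 of 3 replicates (exact sign-flip p = 0.5). Of the V0 genes, 12 of 18 are tissue-restricted paralogs against 4 of 13 of the V1 genes. Within V1, 3 of 4 widely expressed and 0 of 4 restricted paralogs were bound in the IDR list, and within V0 these counts were 4 of 6 and 1 of 12.

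Among the V1 genes, signals are given as the authors' value of the strongest peak within 1 kb, with replicates 1, 2 and 3 in that order and compared only within a list. The lists differ in scale, with signals of 84.5, 90.4 and 71.0 at rank 5000 in replicates 1, 2 and 3. A mean and SD of signals over replicates includes that difference. Vha68-2 (FBgn0263598), a gene for the catalytic A subunit, had a summit 117 bp upstream of its start with an IDR signal of 421, rank 2243 of 7092. Its replicate signals were 101, 183 and 136, a mean of 140 ± 41.1 (SD, n = 3), and it was among the strongest 5000 peaks in each. Vha68-1 (FBgn0265262), the second widely expressed A gene, had a peak in replicate 2 only, with a signal of 164 and rank 2156, while the IDR, pooled and other replicate lists held none within 1 kb. Its start is 373 bp from that of mTor, the growth-control kinase gene on the opposite strand. Vha68-3, the restricted A gene, begins just downstream of Vha68-2 and had 1 weak promoter peak, with a signal of 19.0 in replicate 2. The 3 A genes thus ran from a peak in every list to a peak in a single replicate.

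**Figure D2:**
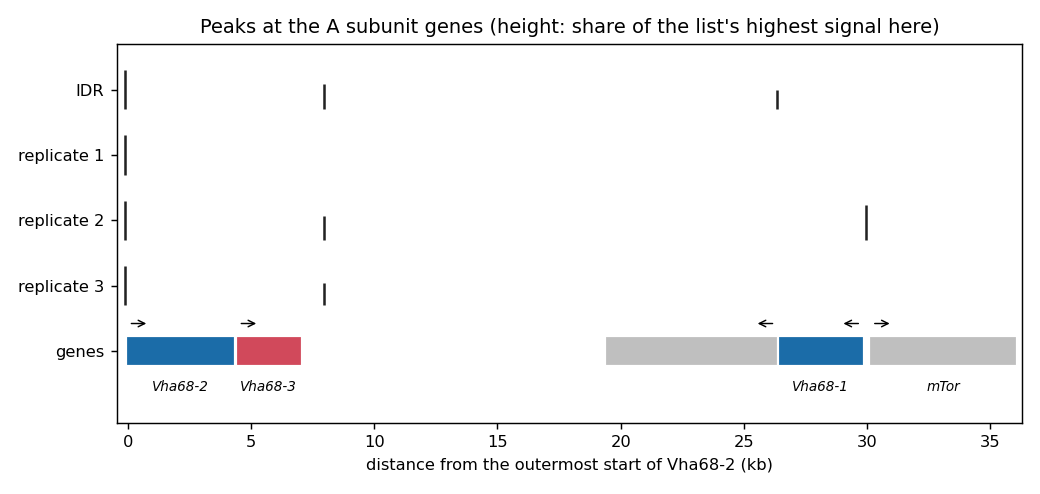
The map shows the A subunit genes as boxes (blue, widely expressed; red, tissue-restricted; grey, other protein-coding genes) against distance in kb from the outermost start of Vha68-2, with arrows for the direction of transcription. Vertical lines mark summits of the IDR list and of each replicate's strongest 5000 peaks, with heights as a share of the highest signal of that list in the region. The Vha68-2 start has a summit in all 4 lists, and the start of Vha68-1 has a summit only in replicate 2.

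The V1 subunits without a paralog pair had modest peaks. Vha55 (FBgn0005671), the B subunit that binds ATP beside A, had its strongest IDR summit 5 bp downstream of a start, in an exon outside the coding sequence, with a signal of 203 and rank 5832. Its replicate values were 64.3, 79.5 and 75.4, and in replicate 1 the strongest peak lay 718 bp downstream instead. Vha44 (FBgn0287825), the C subunit at the V1 to V0 joint, had an IDR signal of 251 and replicate values of 91.0, 102 and 82.9, a mean of 92.0 ± 9.59 (SD, n = 3). Its summit lay 60 bp upstream of Vha44 and 63 bp upstream of the nearest start of Hmgs, which encodes HMG-CoA synthase, on the opposite strand. That summit fell in an exon of Hmgs outside the coding sequence. Vha13 (FBgn0283536), the stalk subunit G, had a summit in its coding exon 102 bp downstream of the start, with an IDR signal of 213 and replicate values of 68.8, 97.0 and 72.8. Vha55, Vha44 and Vha13 thus had a peak in every replicate, as did VhaSFD and Vha26, given next. VhaSFD (FBgn0027779), the regulatory subunit H, was near the end of the IDR list, with a signal of 172 at rank 7056 and replicate values of 50.1, 74.7 and 53.8. Vha26, the stalk subunit E, had no IDR peak, and its replicate values were 28.7, 68.8 and 62.2.

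The rotor subunits D and F had paralogs that differed in every replicate. Vha36-1 (FBgn0022097), the widely expressed D gene, had a summit 60 bp upstream of its start with replicate values of 79.8, 102 and 90.8, a mean of 90.9 ± 11.1 (SD, n = 3). Its restricted paralogs Vha36-2 and Vha36-3 had no promoter peak in any list. Vha14-1 (FBgn0262512), the widely expressed F gene, had a strong IDR signal of 1079, rank 478, with replicate values of 426, 345 and 289, a mean of 353 ± 68.9 (SD, n = 3). That summit lay 898 bp downstream of its start, beyond its end and 230 bp upstream of Gmppa, a gene of GDP-mannose synthesis. The restricted Vha14-2 had 1 peak, with a signal of 46.4 in replicate 1 and none in the others.

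In the membrane sector, the a and c subunits held the highest values. Vha100-2 (FBgn0028670), the widely expressed gene for the proton-channel subunit a, had an IDR signal of 1164, rank 416, the strongest IDR promoter peak among the 33 genes, and replicate values of 383, 431 and 328, a mean of 381 ± 51.5 (SD, n = 3). That summit was 270 bp upstream of the inner start of Vha100-2 and 203 bp inside Vti1b, which encodes a SNARE protein of endosomes, in an exon outside the coding sequence. A weaker IDR summit, with a signal of 239, lay 221 bp upstream of another start of Vha100-2, in an intron of Vti1b. Of the 4 restricted a genes, Vha100-1, Vha100-3 and Vha100-4 had no promoter peak in any list, though Vha100-4 lies just downstream of Vha100-2 on the same strand. Vha100-5 had weak values of 45.7, 71.0 and 31.5 and no IDR peak, and its pooled summit lay in an intron 510 bp downstream of the start.

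The c subunit, which forms the proton-carrying ring, was the subunit for which a restricted paralog had the higher peak in every replicate. Vha16-1 (FBgn0262736), the widely expressed gene, had an intergenic summit 197 bp upstream of its start, an IDR signal of 345 and replicate values of 109, 141 and 96.3, a mean of 115 ± 23.0 (SD, n = 3). The restricted Vha16-5 (FBgn0032294) was higher in 3 of 3 replicates, with 132, 355 and 148, a mean of 212 ± 124 (SD, n = 3), and an IDR signal of 644 at rank 1206. By rank this peak of Vha16-5 stood at 2764, 605 and 1688 in replicates 1, 2 and 3. The summit, in the intergenic stretch printed above, was 275 bp upstream of Vha16-5 but 27 bp upstream of CG12299, a gene on the opposite strand, and a weaker IDR peak with a signal of 178 at the other end of Vha16-5 lay 150 bp upstream of Nup107, a nuclear pore gene. The remaining restricted c genes were weak or empty: Vha16-2 had 21.6, 24.3 and 14.8, Vha16-3 had 26.7, 24.3 and 20.9, and Vha16-4 had none. Vha16-2 and Vha16-3 start 1572 bp apart on the same strand, and in replicate 2 the same peak counts for both.

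The other membrane subunits had weaker peaks. VhaPPA1-1, the widely expressed gene for the ring subunit c'', had no IDR peak and replicate values of 49.9, 71.3 and 48.0, and its restricted paralog VhaPPA1-2 had none. VhaAC39-1, the widely expressed gene for subunit d that joins rotor to ring, had no IDR peak and values of 58.9, 38.3 and 51.7. Its restricted paralog VhaAC39-2 had 41.7, 45.3 and 43.7, so the order of the 2 turned in replicate 2 and their ranges overlapped. For the small subunit e, the widely expressed VhaM9.7-b (FBgn0028663) had an IDR signal of 348 with no peak in replicate 1 and values of 135 and 95.1 in replicates 2 and 3. The widely expressed VhaM9.7-a (FBgn0035521) had an IDR signal of 197 and values of 76.4, 82.8 and 36.0. Of these widely expressed e genes, VhaM9.7-a was the higher in replicate 1 and VhaM9.7-b in the other replicates. VhaM9.7-d had no promoter peak, and VhaM9.7-c had 1, with a signal of 74.8 at rank 4662 in replicate 3. The accessory genes VhaAC45 and VhaAC45RP had no IDR peak and replicate values of 23.0 to 55.3.

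**Figure D3:**
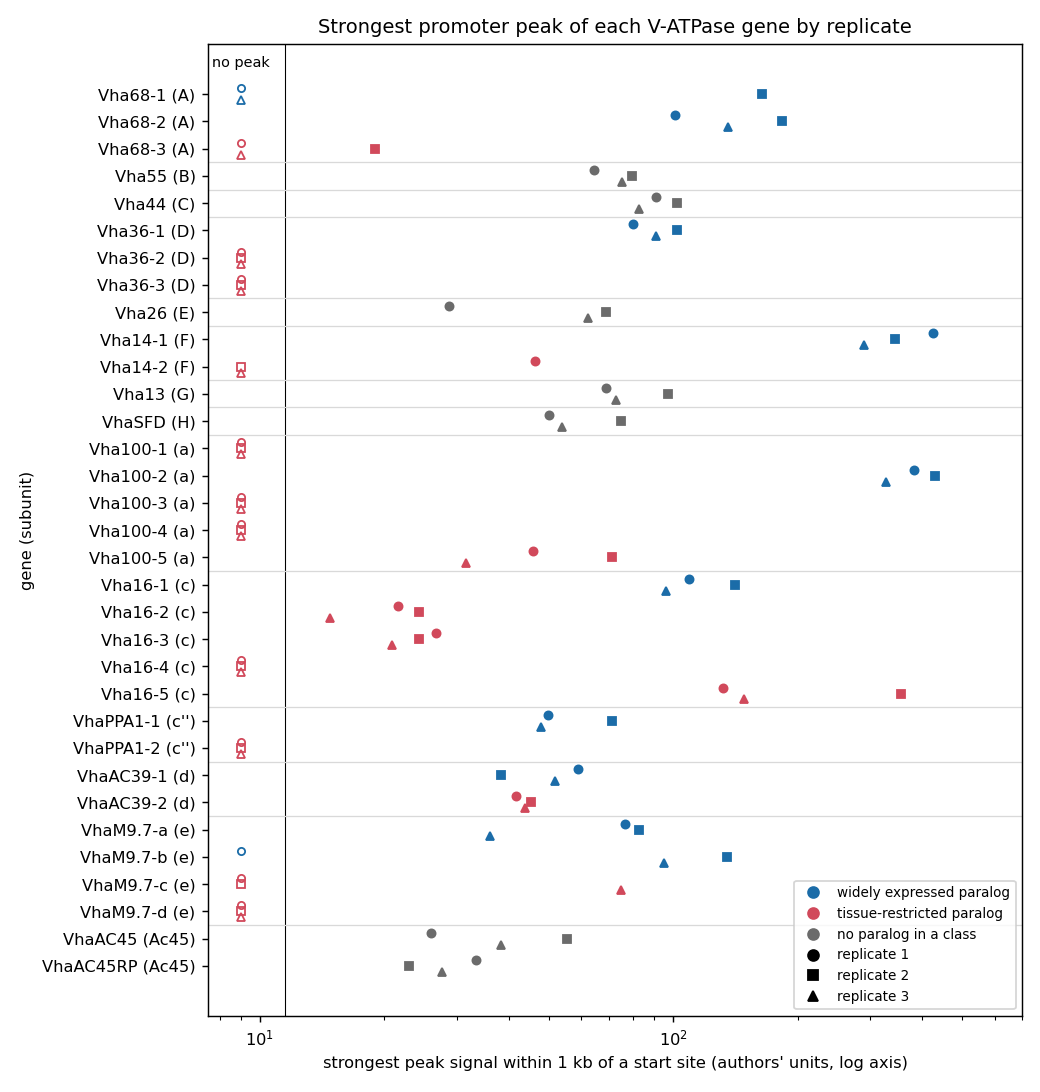
The plot gives the strongest peak signal within 1 kb of a start site for each V-ATPase gene in each replicate's full list, on a log axis in the authors' units, with open symbols at the left where a replicate held no such peak. Blue marks widely expressed paralogs, red tissue-restricted paralogs and grey genes in neither class. Vha100-2 and Vha14-1 have the highest means over replicates, and 8 of the 16 tissue-restricted paralogs have no peak in any replicate.

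Set subunit by subunit, the stronger of the widely expressed paralogs exceeded the strongest restricted paralog in 3 of 3 replicates for 6 of 8 subunits, namely A, D, F, a, c'' and e. The exceptions were c, where the restricted Vha16-5 was higher in 3 of 3, and d, where the widely expressed gene was higher in 2 of 3. With summits within 500 bp the count of subunits was 5. It was 7 without replicate 2 and 6 without replicate 1 or replicate 3. The count was not redone with each summit given only to the nearest start. For D, F, a and e the strongest IDR summit of the widely expressed gene or genes was nearer to another gene's start. The result for these subunits thus depends on the 1 kb rule. Each replicate's full list of 30000 peaks runs down to a low −log10 q, 0.358, 0.429 and 0.388 in replicates 1, 2 and 3. A peak in a full list can therefore be weak. Of the 16 restricted paralogs, 8 had no promoter peak in any full list, and 5 had a peak in all 3. The corresponding numbers for the 10 widely expressed paralogs were 0 and 8. All 7 genes in neither class had a peak in all 3 full lists. Over all protein-coding genes, 36.6% had no such peak in any full list and 45.5% had one in all 3. Among the 12 genes with an IDR promoter peak, 6 were among the strongest 5000 in every replicate, namely Vha68-2, Vha14-1, Vha44, Vha100-2, Vha16-1 and Vha16-5. The same share over all bound genes was not computed, so this count cannot be set against that of other genes.

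Several of these peaks sat in regions shared with a neighbouring gene. For 6 of the 12 bound genes the strongest IDR summit was nearer to the start of another protein-coding gene than to their own: Vha100-2 (Vti1b), Vha14-1 (Gmppa), Vha16-5 (CG12299), Vha36-1 (CG8187, 12 bp), VhaM9.7-a (CG11586, 86 bp) and VhaM9.7-b (COX8, a cytochrome c oxidase gene, 118 bp). Over all 4031 bound genes that share was 27.8%. When a summit was given only to the gene with the nearest protein-coding start, a rule chosen after seeing the data, 7 of 33 V-ATPase genes (21.2%) were bound against 21.3% of all genes. These were 3 of 10 widely expressed paralogs, 0 of 16 tissue-restricted paralogs and 4 of 7 genes in neither class. Under this rule the difference between the paralog classes in the replicates was 24.6 percentage points in place of 48.3. Which of the adjoining genes a peak acts on was not tested.

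**Figure D4:**
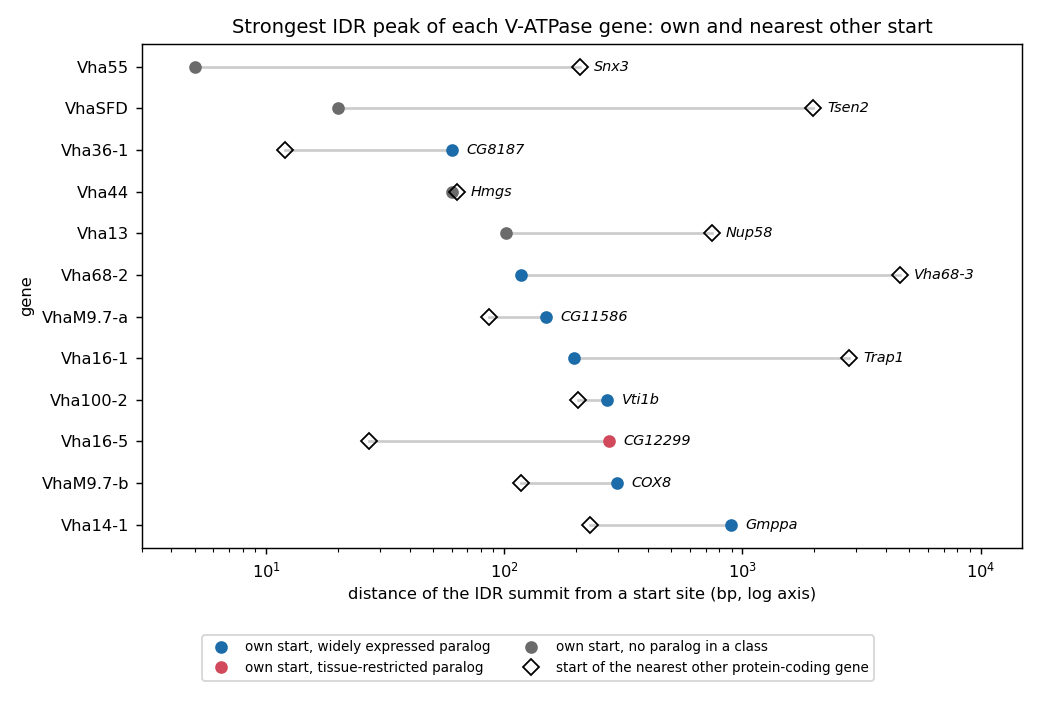
The plot gives, for the strongest IDR promoter peak of each bound V-ATPase gene, the distance in bp on a log axis from the summit to the gene's own start (filled; blue widely expressed, red tissue-restricted, grey neither) and to the start of the nearest other protein-coding gene (open diamonds, named). The diamond lies to the left of the filled point, nearer to the summit, for 6 of 12 genes.

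A close neighbour was also more common among the widely expressed paralogs. Another protein-coding start lay within 1 kb for 6 of 10 of them, 4 of 16 tissue-restricted paralogs and 5 of 7 genes in neither class, against 42.9% of all genes. Across all genes, 41.5% of those with such a neighbour were bound in the IDR list and 19.4% of those without. Among V-ATPase genes the counts were 9 of 15 with a neighbour and 3 of 18 without. Within genes with a neighbour, 5 of 6 widely expressed and 1 of 4 restricted paralogs were bound. Within genes without one, 2 of 4 widely expressed paralogs (Vha68-2 and Vha16-1) and 0 of 12 restricted paralogs were bound.

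The positions and strengths of the bound V-ATPase genes' peaks were set beside those of all bound genes. The strongest IDR summit lay a median of 133 bp from the start, against 170 bp over all 4031 bound genes, and 8 of 12 (66.7%) were upstream, against 80.6%. Their median signal was 310 (median rank 3483.5), against 359 (median rank 2807) for all bound genes, and the IDR list runs down to 172. In 10 of 12 genes (83.3%) that peak had a summit within 100 bp in all 3 replicate lists, against 89.9% of all bound genes. The exceptions were VhaM9.7-b, with none in replicate 1, and VhaSFD, with none in replicate 3.

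Counting the gene body with 2 kb on either side added peaks that mostly sat at other genes. An IDR summit lay there for 19 of 33 V-ATPase genes (57.6%) against 42.4% of all genes, with 8 of 10 widely expressed, 6 of 16 restricted and 5 of 7 other members. With only IDR peaks matched in replicates 1 and 3 that count was 10 (30.3%), against 34.2% of all genes. A match was a summit within 100 bp among the strongest 7092 peaks of a replicate. The IDR list itself was not rebuilt without replicate 2. Within the body alone the count was 5 (15.2%), against 16.0%. Among the genes that this rule added, the summit was 50 bp upstream of Yip1d1 for Vha68-1, 56 bp upstream of Cam, the calmodulin gene, for Vha36-2, 173 bp upstream of AANATL7 for Vha36-3 and 48 bp upstream of Nup93-2 for VhaPPA1-2. For VhaAC39-2 it was in an intron of unk. For Vha68-3 and VhaAC45RP the nearest start was their own, 3513 bp and 2148 bp away. The strongest body peak of any member, with a signal of 1385 at rank 287, was assigned to Vha13 but lay in an intron of subdued, 639 bp upstream of a start of that gene. In the pooled list the body count was 27 of 33 (81.8%), against 61.8% of all genes, and the genes without such a summit were 6 restricted paralogs, Vha100-3, Vha100-4, Vha14-2, Vha16-4, VhaM9.7-c and VhaM9.7-d.

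The promoters, from 250 bp before to 50 bp after the outermost start, were searched on both strands for 11 words. TCATGTG, an E-box of the form bound by Mitf relatives, was present in 4 of 33 V-ATPase promoters (12.1%) against 2.09% of all promoters, in Vha14-1, VhaM9.7-b, VhaPPA1-1 and VhaAC45. These comprised 3 widely expressed paralogs, 0 restricted paralogs and 1 gene in neither class. Neither of the E-boxes given next was in a widely expressed paralog. The shorter was in 1 restricted paralog and 2 genes in neither class, and the longer in 1 gene in neither class. CACGTG was in 3 of 33 (9.09%) against 4.2%, and TCACGTG, whose matches count under CACGTG too, in 1 (3.03%) against 1.14%. The homeodomain core TAATTA was in 5 of 33 (15.2%) against 20.4%, and the P3 palindrome of TAAT sites known for paired-class homeodomains in 1 (3.03%) against 3.11%. TATCGATA, the DREF site of housekeeping promoters, was in 2 (6.06%) against 9.36%, and GGTCACAC, part of another core promoter word, in 4 (12.1%) against 7.7%. The remaining words were CAGCTG in 24.2% against 17.7%, AGATAA, read by GATA factors, in 12.1% against 18.7%, TGTTTAC, a forkhead site, in 9.09% against 9.19%, and GAGAG, read by GAGA factor, in 27.3% against 29.7%. Of these remaining words, the first was in 2 widely expressed paralogs, 3 restricted paralogs and 3 genes in neither class. A match is a run of letters and no evidence of binding.

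At the 15 IDR peaks within 1 kb of V-ATPase starts, the window of 100 bp either side of the summit held few homeodomain words. TAATTA was in 1 of 15 (6.67%), the Vha100-2 peak, against 18.8% of all IDR peaks, and P3 in 0 of 15 against 3.07%. With 200 bp either side TAATTA was in 20.0% against 28.4%. TCACGTG was in 2 of 15 (13.3%), the peaks of Vha44 and Vha55, against 0.705% of all IDR peaks, and TCATGTG in 1 (6.67%), the Vha55 peak, against 1.66%. CAGCTG was in 4 (26.7%) against 8.02%, at Vha36-1, Vha44, VhaSFD and the weaker Vha55 peak, and with 200 bp either side it was in 26.7% against 19.2%. TATCGATA was in 1 (6.67%), at VhaSFD, against 3.12%, and GGTCACAC in 1 (6.67%), at Vha68-2, against 2.19%. AGATAA was in 20.0% against 16.7%, TGTTTAC in 13.3% against 7.61% and GAGAG in 26.7% against 21.3%. With 15 peaks, 1 peak is 6.67%, so differences of this size rest on a few sequences. The set of all IDR peaks also holds peaks far from starts. No share was computed for IDR peaks near starts alone, so the 2 sets are unlike.

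In the IDR list, genes that act with the V-ATPase were bound at a share near that of all genes. Of 26 acidification and lysosome genes, 8 (30.8%) had an IDR summit within 1 kb, against 28.9% of all genes. With each summit given only to the nearest protein-coding start, 4 of 26 (15.4%) were bound, against 21.3% of all genes. The strongest was at Lamtor3, of the Ragulator complex that links the V-ATPase to mTor signalling, with an IDR signal of 2535 at rank 76, 88 bp upstream of the start. Next was mtd, with a signal of 1098, and Mitf itself had a summit 568 bp downstream of a start with a signal of 383, among the strongest 5000 peaks in 3 of 3 replicates. Rbcn-3A, for a rabconnectin that assembles the pump, had a signal of 281, Lamtor5 261, and the cathepsin genes CtsL1 and CtsB 356 and 217. Npc2a, for a lysosomal sterol carrier, had 189. Not bound were Lamtor1, Lamtor2, Lamtor4, RagA-B, RagC-D, BHD, Rbcn-3B, Lamp1, cathD, Trpml, spin, Npc1a, ClC-b, ClC-c, car, dor, lt and Vps16A. Among the strongest 5000 peaks of replicates 1, 2 and 3 the 26 genes stood at 34.6%, 23.1% and 26.9%, a mean of 28.2% ± 5.88 (SD, n = 3). All protein-coding genes stood at 22.3%, 22.9% and 22.9% by that measure.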

How the data were processed

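Anti-GFP ChIP-seq peaks from whole embryos were used as deposited, on dm6. Per the file headers and accompanying notes, the authors derived each replicate's peaks from its alignment and 1 control, the pooled list from all 3 replicates, and the IDR list from these lists. Which aligner and peak caller were used is not given in the sources used here. Each peak's signal is the authors' value, compared only within a list, though means and SDs over the replicate lists are given. The −log10 q values, also deposited, were used as a filter in an alternative. Sequencing depth is unknown from the files, so no interval is given. The control and signal tracks were not analysed here, and 0 columns lacked a sample match.

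Summits were linked to start sites of Ensembl release 115 (BDGP6.54) on 6 chromosome arms. Errors are SDs over the 3 replicates, each cut to its strongest 5000 peaks where shares are given, and tests were exact two-sided sign-flip tests over replicates. The members, classes and lists were chosen with earlier results of these data known. Values are given for every bound member and widely expressed paralog, and for restricted paralogs with a pooled promoter peak. The link of summits to genes was tested on simulated data, where 200 of 200 planted genes were found. Python 3.11.15, numpy 2.4.6 and pandas 2.3.3 were used.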

Additional observations from a re-analysis of the deposited data

How the results depend on the processing

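The difference between paralog classes kept its direction under every alternative run, from 24.6 percentage points (nearest protein-coding start only) to 70.8 (strongest 10000 peaks), and from 40.6 to 55.6 with a replicate left out. The V1 to V0, proteasome and ribosomal differences kept the sign of their mean, but V1 minus V0 fell from 16.2 to 8.55 within 500 bp, with 1 replicate of opposite sign, and to 6.13 with the strongest 2500 peaks, and the proteasome difference was 4.92 to 13.1 with a replicate left out. Of the V-ATPase genes, 12 had an IDR summit within 1 kb. That number fell to 6 with IDR peaks of at least median signal, where all genes stood at 17.2%, and to 7 with the nearest start only. It was 8 to 10 with only IDR peaks matched in both replicates that remain when 1 is dropped (all genes 21.6% to 22.7%). The IDR list itself was not rebuilt, so counts with such matching can only fall. The widely expressed count fell from 7 to 4 and the restricted count from 1 to 0 within 200 bp of a start, where all genes stood at 18.2%. With the nearest start only these were 3 and 0. The body count fell from 19 to 5 in the body alone, and was 10 to 14 with such matching of IDR peaks (all genes 34.2% to 35.5%). The mean share of 27.3% became 11.1% with the strongest 2500 peaks, 46.5% with 10000 and 13.1% with the nearest start only. Shorter lists hold fewer peaks by construction. The all-gene shares of the replicate lists were not computed under these settings, so these moves cannot be set against those of all genes. The nearest-start rule and all alternatives for the class counts were chosen after seeing the data. The limits are 3 replicates, whose smallest p is 0.25, no untagged control and classes taken from general knowledge with earlier results of these data known.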
